A study of Mus musculus with 26 samples.

Results

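The genes described here carry glucose through glycolysis or belong to the system that senses low oxygen, and they were followed across 26 expression arrays of mouse cells. They were chosen by name as 38 genes, from glucose transporters to targets of hypoxia-inducible factor (HIF), and 35 of the 38 were measured, out of 19938 genes on the arrays. Gpi1 and Eno1 had no probe set with their symbol, and Gapdh lay only on probe sets that name several genes, so those 3 later enzymes were not analysed here. Each gene was read from its probe set with 1 symbol, and from the one with the highest mean where a gene had several. The 35 fall into 11 genes of transport and first steps, 10 later enzymes, 5 genes of pyruvate and lactate fate, and 9 genes of the HIF system and its targets.

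All arrays came from Ba/F3/gp130 cells, a mouse pro-B line dependent on interleukin-3 or Hyper-IL-6 that carries the cytokine receptor chain gp130. One line expressed the natural receptor chains IL-10R2 and IL-22Rα1, and was given IL-22 (n = 4) or left untreated (n = 4). The other expressed the synthetic chains mCherryVHH-IL-10R2 and GFPVHH-IL-22Rα1, whose outer parts are nanobodies, and was given a GFP-mCherry fusion (n = 6), mCherry-Fc (n = 6) or left untreated (n = 6). GFP-mCherry can bind both synthetic chains, and mCherry-Fc only the IL-10R2 one. Every culture had 4 washes and 4 h without serum, and the proteins were added at 100 ng/ml for 2 h. No group received a protein that binds neither chain, and the labels do not say whether a line was 1 clone. They also do not say that replicates were separate cultures, so the p-values measure the spread between these samples, which may be technical. Because the samples are bulk RNA, fewer cells of a type and less RNA per cell cannot be told apart.

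Glycolysis begins when glucose transporters admit glucose and hexokinases phosphorylate it, and phosphofructokinase then commits the sugar to breakdown, under the control of the fructose 2,6-bisphosphate made by PFKFB enzymes. The later enzymes split the sugar and recover ATP, after which pyruvate either enters mitochondria or becomes lactate that leaves through monocarboxylate transporters. HIF-1α, marked for destruction by oxygen-dependent prolyl hydroxylases, switches on many of these genes when oxygen is short, and cytokine-driven lymphoid cells also adjust glycolysis to growth signals.

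The letters before the start sites show how the set is written in DNA. In the 250 bases upstream of the RefSeq start sites (build GRCm38.p6), with 36 of the 38 genes matched, 19 of 36 (52.8%) held ACGTG, the usual core of a HIF response element, against 16.6% of 27025 promoters. GCGTG, the other common core, was in 18 of 36 (50.0%) against 28.2%, and at least one of the 2 was in 29 of 36 (80.6%) against 38.6%. TTCNNNGAA, the palindrome of STAT factors that IL-22 receptors activate, was in 0 of 36 against 7.2% of all promoters. Both strands were searched, and a match is only a string of letters. The set includes HIF targets by choice, and the promoters it is set against were not matched for base composition. The 3 promoters below belong to a gene that rose with all 3 proteins (Hk2), the one that separated the 2 synthetic ligands (Slc2a6), and the HIF target with the largest fall (Ankrd37). All lie on the minus strand and run 5′ to 3′, and capitals mark ACGTG or GCGTG or the reverse complement of either.
Hk2, chr6:82774455-82774704: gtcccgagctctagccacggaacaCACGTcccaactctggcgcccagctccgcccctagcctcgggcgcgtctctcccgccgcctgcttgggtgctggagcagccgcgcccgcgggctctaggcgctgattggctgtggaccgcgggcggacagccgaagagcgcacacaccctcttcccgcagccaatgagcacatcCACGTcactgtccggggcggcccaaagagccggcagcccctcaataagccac
Slc2a6, chr2:27027999-27028248: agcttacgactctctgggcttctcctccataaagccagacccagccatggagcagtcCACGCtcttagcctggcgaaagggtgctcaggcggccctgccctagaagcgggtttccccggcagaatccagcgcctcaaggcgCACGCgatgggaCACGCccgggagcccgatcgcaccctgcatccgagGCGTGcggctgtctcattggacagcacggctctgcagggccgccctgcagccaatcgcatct
Ankrd37, chr8:45999851-46000100: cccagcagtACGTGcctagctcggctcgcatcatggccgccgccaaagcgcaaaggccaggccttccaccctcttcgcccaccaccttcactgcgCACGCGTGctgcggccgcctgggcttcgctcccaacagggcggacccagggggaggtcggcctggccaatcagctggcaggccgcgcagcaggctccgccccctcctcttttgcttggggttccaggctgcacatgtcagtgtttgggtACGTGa
Hk2 held ACGTG at 2 places and GCGTG at none, Slc2a6 held GCGTG at 4 places and ACGTG at none, and Ankrd37 held each at 2 places, its GCGTG matches overlapping on opposite strands.

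Some arrays stood apart and are described before the results. Arrays with high replicate numbers (natural 4 and 5, synthetic 12 to 15) differed from those with low ones (natural 1 to 3, synthetic 7 to 11) in many genes, although the labels call neither range a batch. IL-22 replicate 5, the only IL-22 array of the high range, exceeded all of replicates 1 to 3 in 25 of the 35 genes (71.4%), against 29.1% of all genes. In untreated natural cells the high numbers lay above the low ones in 23 of 35 (65.7%), against 19.6% of all genes, with a median gap of 0.76 log2 in the HIF group and -0.02 over all genes. In untreated synthetic cells the gap ran the other way, with the high numbers below the low ones in 21 of 35 (60%), against 21.7% of all genes. The mCherry-Fc arrays had 17 of 35 below (48.6%, against 15.3%), and GFP-mCherry arrays 1 of 35 below (2.86%, against 7.94%). Results are therefore given with all arrays, and most calls of the 35 genes also within each range. Most named genes of the other lists are given with all arrays only. IL-22 replicate 5 is alone in the high range, so its fit there assumes that it varies like the other arrays.

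**Figure D1:**
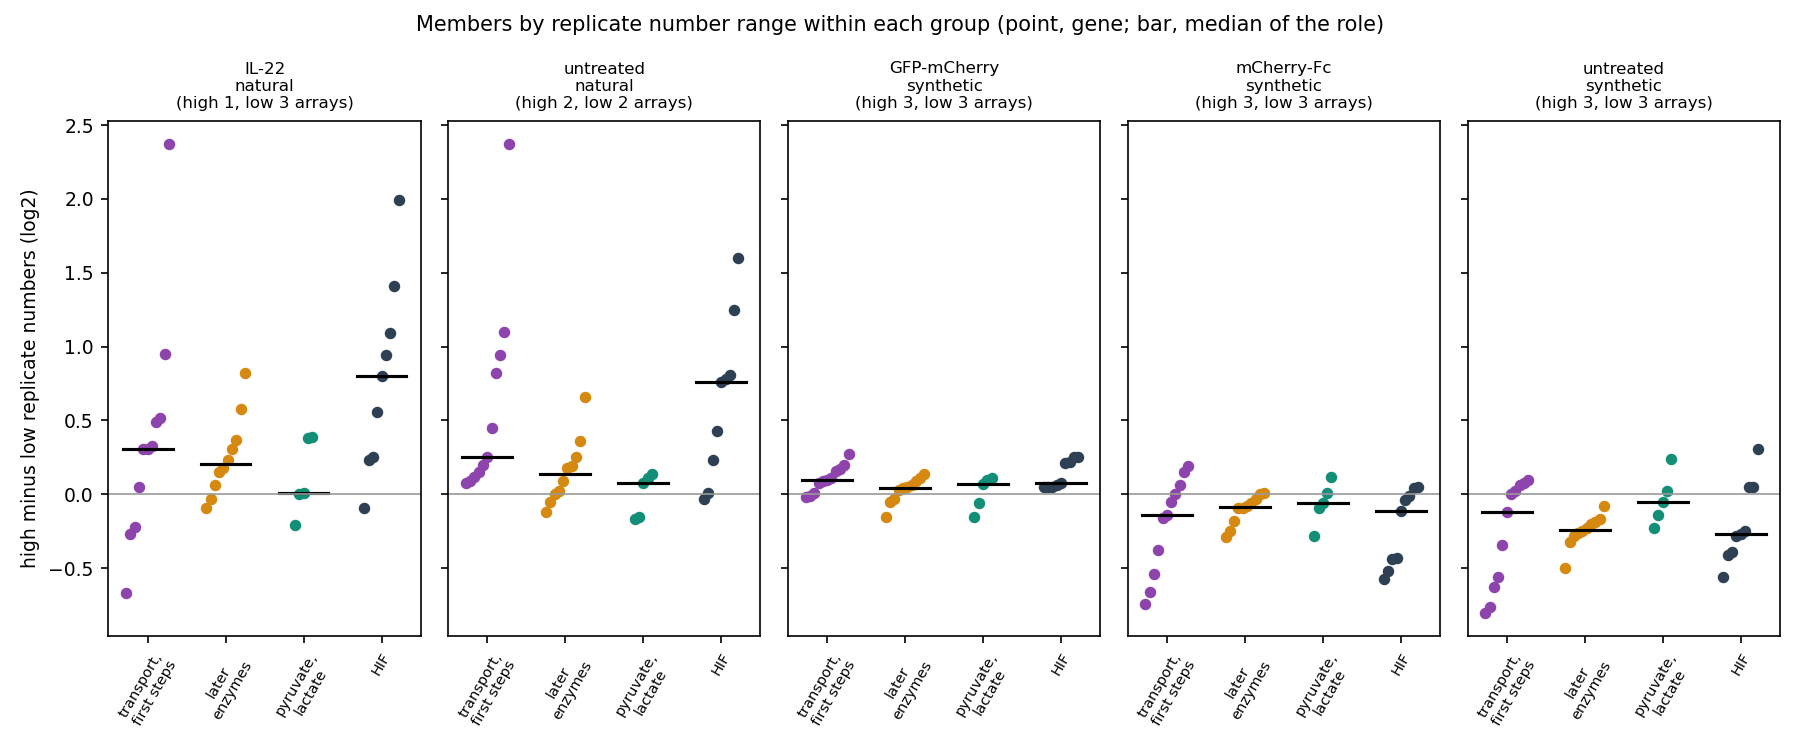
Difference between arrays with high and low replicate numbers (log2) for each gene of the set, by group and role. Points lie mostly above 0 in both natural receptor groups and mostly below 0 in untreated synthetic cells (median -0.23), while GFP-mCherry arrays stay near 0 (median 0.08).

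Some markers of another cell type moved with that split in natural cells. Itgam, a myeloid integrin, stood at 11.73 to 12.05 log2 on natural arrays of the high range, 8.73 to 8.98 on natural arrays of the low range, and 4.72 to 6.02 on synthetic arrays. Among synthetic arrays the high range averaged below the low range when untreated (5.27 against 5.91) and with mCherry-Fc (4.95 against 5.88). With GFP-mCherry it averaged above it (5.64 against 5.31). All Itgam values of synthetic arrays lay below the array medians (6.06 to 6.28). In untreated natural cells Mpo, a granule peroxidase of myeloid cells, averaged 10.81 in the high range and 7.18 in the low range, whereas the elastase gene Elane averaged 6.12 in the high range and 6.20 in the low range. Among synthetic arrays the myeloid markers did not move together. Lyz2, Csf1r and Adgre1 averaged lower in the high range when untreated and with mCherry-Fc, whereas Mpo averaged higher. Elane and Cd14 went opposite ways in these groups. With GFP-mCherry Lyz2 averaged higher in the high range, and Csf1r, Adgre1, Mpo, Elane and Cd14 lower. Over the 7 myeloid markers measured, of which 1 averaged above 7, the mean per array spanned 6.16 to 7.97 in IL-22 cells and 6.13 to 8.00 in untreated natural cells. It spanned 5.44 to 5.62 with GFP-mCherry, 5.42 to 5.71 with mCherry-Fc and 5.42 to 5.72 in untreated synthetic cells. Their part in the results was not tested. Of 14 pro-B markers 4 averaged above 7, among them Ptprc (10.67) and Cd79a (9.55), while Pax5 (5.39), Rag1 (4.91) and Il7r (3.77) were dim. T cell and mast cell lists had 0 of 6 markers each above 7. Of 3 erythroid markers 2 averaged above 7, and their mean per array was 6.74 to 6.91 in IL-22 cells, against 7.19 to 7.29 in untreated natural cells, without overlap. Klf1, an erythroid transcription factor gene, averaged 7.23 in IL-22 cells and 8.35 in untreated natural cells. Epor averaged 7.63 and 7.90 in these groups, and Alas2 5.53 and 5.49, so the gap of the erythroid mean came mainly from Klf1. In synthetic cells the erythroid mean was 7.27 to 7.39 with GFP-mCherry, 7.29 to 7.42 with mCherry-Fc and 7.27 to 7.50 untreated. The part of these markers in the IL-22 results was not tested.

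In natural receptor cells IL-22 was followed by higher RNA of Hk2, Slc2a1, Pfkfb3 and Slc2a6 at the entry to glycolysis and of the lactate transporter Slc16a1, while 0 of 10 later enzymes passed limma's test (0 also at an unadjusted p under 0.05). With p-values adjusted over all genes, 7 of the 35 passed (20%), against 11.4% of all genes (5.39% higher and 6.03% lower). Most members are bright, and among genes averaging at least 7 the share called was 27.5%, with 8 members passing in that fit. Of transport and first steps 4 of 11 rose and 0 fell (median 0.04 log2), of the 10 later enzymes 0 passed (median -0.05), of pyruvate and lactate fate 1 of 5 rose (median 0.00), and of the HIF group 2 of 9 fell and 0 rose (median -0.22). The median over all genes was -0.02. The groups did not overlap for 5 members, and for 11.4% of all genes.

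Hk2, the inducible hexokinase, had 11.19, 11.31, 11.26 and 10.98 log2 intensity in IL-22 cells (replicates 1, 2, 3 and 5), against 9.44, 9.36, 10.22 and 10.45 in untreated natural cells (replicates 2, 3, 4 and 5). Every IL-22 array was above every untreated one, and the untreated arrays of the high range were themselves above those of the low range. Hk2 rose by 1.31 log2 (SE 0.21, 2.49-fold, adjusted p = 4.51e-05). Within the low range the difference was 1.85 (adjusted p = 3.59e-09), and within the high range 0.64 (adjusted p = 0.0852). Hk2 thus kept its sign in both ranges with a larger size in the low one.

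Slc2a1, which encodes the glucose transporter GLUT1, had 12.31, 12.33, 12.29 and 12.81 in IL-22 cells, against 11.12, 11.06, 11.81 and 12.01 in untreated natural cells. The groups did not overlap, and replicate 5 was the highest IL-22 array. Slc2a1 rose by 0.93 log2 (SE 0.21, 1.91-fold, adjusted p = 0.00252), with 1.22 within the low range and 0.90 within the high range (adjusted p = 0.0205). It was past the threshold under all 22 alternatives tried.

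Pfkfb3, whose product makes the activator of phosphofructokinase, had 8.53, 8.65, 8.53 and 7.91 in IL-22 cells, against 7.56, 7.55, 7.55 and 7.80 in untreated natural cells. The groups were apart, but replicate 5 of IL-22 lay close to replicate 5 of the untreated cells. Pfkfb3 rose by 0.79 log2 (SE 0.11, adjusted p = 2.6e-06), with 1.02 within the low range and 0.23 within the high range (adjusted p = 0.458).

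Slc16a1, the monocarboxylate transporter MCT1 that carries lactate, had 10.15, 10.25, 10.19 and 9.99 in IL-22 cells, against 9.90, 9.87, 9.75 and 9.71 in untreated natural cells. It rose by 0.34 log2 (SE 0.07, adjusted p = 0.000532), with 0.32 within the low range (adjusted p = 0.00376) and 0.26 within the high range (adjusted p = 0.266). Slc2a6, a transporter of the same family as GLUT1, had 8.55, 8.70, 8.40 and 8.33, against 8.06, 8.15, 8.24 and 8.28 in untreated natural cells. The Slc2a6 groups were separated by little, and its rise of 0.31 (adjusted p = 0.0109) was 0.44 within the low range (adjusted p = 0.00397) and 0.07 within the high range (adjusted p = 0.893). It did not pass with replicate numbers as a block (0.31, adjusted p = 0.0753). It was also lost when replicate 2 of the IL-22 group (0.24, adjusted p = 0.0729) or of the untreated group (0.27, adjusted p = 0.0508) was left out.

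Both calls in the HIF group were falls. Ankrd37, an ankyrin repeat gene induced by HIF-1, had 7.15, 7.13, 7.00 and 8.50 in IL-22 cells, against 8.13, 7.84, 9.08 and 9.39 in untreated natural cells. The groups overlapped because IL-22 replicate 5 was above the lowest untreated arrays, although each array of a range was lower with IL-22 than without it. Ankrd37 fell by 1.17 log2 (SE 0.27, adjusted p = 0.00310), with -0.90 within the low range (adjusted p = 3.83e-05), -0.73 within the high range (adjusted p = 0.0310) and -0.91 with the replicate block (adjusted p = 0.000552). In a fit of the 2 natural groups alone its adjusted p was 0.124.

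Bnip3l, a mitophagy receptor gene, averaged 11.65 ± 0.13 in IL-22 cells and 11.83 ± 0.04 in untreated natural cells (SD, n = 4 each). Its fall of 0.18 log2 (adjusted p = 0.0373) was -0.25 within the low range (adjusted p = 0.00749) and 0.02 within the high range (adjusted p = 0.952). It was lost with the replicate block (-0.14, adjusted p = 0.238) and without any of 7 single arrays (-0.19 to -0.14), all but IL-22 replicate 5. Vegfa, the vascular growth factor gene, differed by 0.15 (adjusted p = 0.708), and by 0.30 with the block (adjusted p = 0.0413). Hif1a differed by 0.06 and Ldha and Pkm by 0.00, and none of these 3 passed.

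Leaving out IL-22 replicate 5 changed the count more than any other array did. The share of all genes called without that array was not computed, so the change is not read as particular to the members. Without replicate 5, 12 of 35 passed, the 7 above and 5 lower genes. These were Hk3 (-1.23, adjusted p = 0.0393), Pfkm (-0.34, adjusted p = 0.00710), Pdk1 (-0.35, adjusted p = 0.00454), Egln1 (-0.62, adjusted p = 0.0254) and Ddit4 (-1.18, adjusted p = 0.00915). Hk3 is a hexokinase of blood cells, Egln1 a HIF prolyl hydroxylase, and Ddit4 an inhibitor of mTORC1. The untreated arrays of both ranges remained in that comparison, so IL-22 arrays of the low range were set against untreated arrays of both. Within the low range alone Hk3 differed by -0.05. There the mean with IL-22 was 8.33 for Ddit4, 9.49 for Egln1, 8.71 for Pfkm and 9.09 for Pdk1. The untreated means of the low range were 8.71, 9.71, 8.83 and 9.38, so each of these gaps was smaller there, that of Pdk1 by little.

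**Figure D2:**
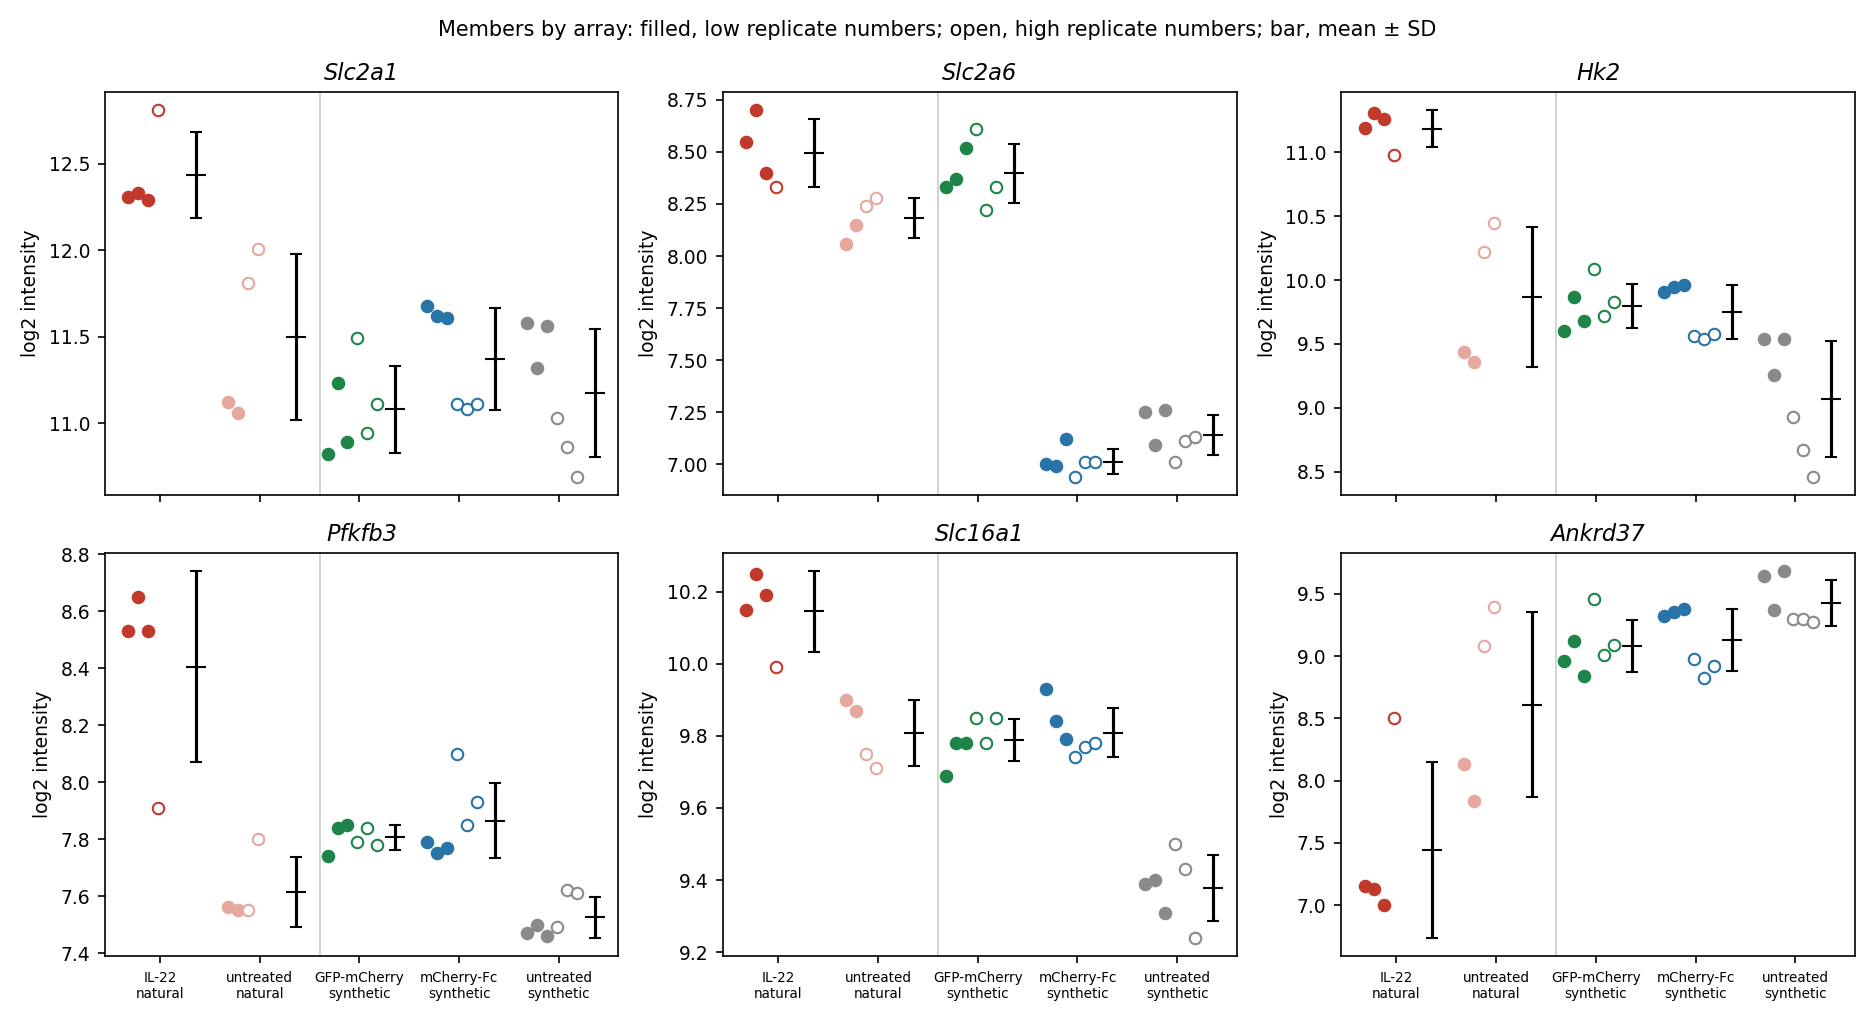
Log2 intensity on every array for 6 genes of the set (Slc2a1, Slc2a6, Hk2, Pfkfb3, Slc16a1, Ankrd37), with group means and SD as bars beside the points and the marker showing low or high replicate numbers. Slc2a6 is high with GFP-mCherry (8.22 to 8.61) and low with mCherry-Fc (6.94 to 7.12), while Hk2 and Slc16a1 are above untreated synthetic cells with both proteins.

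In synthetic receptor cells GFP-mCherry was followed by higher RNA of a transporter, a hexokinase, a later enzyme and the lactate transporter. The count was 7 of 35 higher (20%) and 0 lower, against 26% of all genes called (14.2% higher and 11.8% lower), so the share of members was below that of all genes. Among genes averaging at least 7, as most members do, the share called was 45.4%, with 8 members passing in that fit. The rises were 3 of 11 in transport and first steps (median 0.07), 1 of 10 later enzymes (median 0.07), 2 of 5 in pyruvate and lactate fate (median 0.00) and 1 of 9 in the HIF group (median 0.00). The median over all genes was -0.04. Groups did not overlap for 5 members, and for 14.1% of all genes.

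Slc2a6 spanned 8.22 to 8.61 in GFP-mCherry cells (median 8.35), against 7.01 to 7.26 in untreated synthetic cells (median 7.12). The lowest treated array was almost 1 log2 above the highest untreated one. It rose by 1.26 log2 (SE 0.07, adjusted p = 1.57e-13), with 1.21 within the low range and 1.30 within the high range.

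Hk2 spanned 9.60 to 10.09 in GFP-mCherry cells (median 9.78), against 8.46 to 9.54 in untreated synthetic cells (median 9.10). The groups did not overlap, and the untreated arrays of the high range were the lowest of all. Hk2 rose by 0.73 log2 (SE 0.17, adjusted p = 0.00253), with 0.27 within the low range (adjusted p = 0.0250) and 1.19 within the high range.

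Pgam1, a phosphoglycerate mutase, spanned 12.06 to 12.45 in GFP-mCherry cells (median 12.17), against 11.31 to 12.05 in untreated synthetic cells (median 11.76). It was the later enzyme past the threshold, with a rise of 0.49 log2 (SE 0.12, adjusted p = 0.00269), and within the low range it missed it (0.20, adjusted p = 0.0554) while within the high range it was 0.78 (adjusted p = 0.000370). The other 2 probe sets of Pgam1 gave the same difference as each other, 0.35 (adjusted p = 0.0192). Slc16a1 spanned 9.69 to 9.85 in GFP-mCherry cells (median 9.78), against 9.24 to 9.50 in untreated synthetic cells (median 9.40), and rose by 0.41 (adjusted p = 2.97e-06), with 0.38 and 0.43 within the low and high ranges, both past the threshold.

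Smaller rises completed the 7. Pfkfb3 averaged 7.81 ± 0.04 in GFP-mCherry cells and 7.53 ± 0.07 in untreated synthetic cells (adjusted p = 0.0170; SD, n = 6 each), with a rise of 0.28 log2 that was lost within the high range (0.23, adjusted p = 0.0700) and after quantile normalization (0.18, adjusted p = 0.141). Car9, a carbonic anhydrase induced by HIF, averaged 6.36 ± 0.12 in GFP-mCherry cells and 6.08 ± 0.16 in untreated synthetic cells (adjusted p = 0.00808; SD, n = 6 each), a rise of 0.28, with 0.26 within the low range and 0.29 within the high range (adjusted p = 0.0855). Pdk3, a kinase that shuts pyruvate dehydrogenase, rose by 0.24 (adjusted p = 0.0265), with 0.31 within the low range and 0.16 within the high range (adjusted p = 0.112), and did not pass without GFP-mCherry replicate 7, 13 or 14 or untreated replicate 7, 9 or 11 (0.20 to 0.23 without each). Slc2a1 differed by -0.09 (adjusted p = 0.723).

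The low and high ranges gave different directions in this contrast. Within the low range 6 were higher and 6 lower, the lower ones being Slc2a1 (-0.51), Hk3 (-0.52), the phosphoglycerate kinase gene Pgk1 (-0.20), Egln1 (-0.26), Ankrd37 (-0.59) and the mitophagy receptor gene Bnip3 (-0.46). Within the high range 12 were higher and 0 lower. Of all genes 30.0% were called within the low range and 20.3% within the high range, with 55.6% and 57.1% of those higher. Centring each array on its median moved the median of all genes from -0.04 to 0.04 and the share of higher genes among all called from 54.8% to 82.5%, and 12 members then passed, all higher.

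mCherry-Fc, which can bring together the IL-10R2 chains alone, was followed by higher RNA of the hexokinase Hk2, 2 genes of the phosphofructokinase step, 2 later enzymes, Pdk3 and Slc16a1, and Slc2a6 was not among the genes called (-0.13, adjusted p = 0.150). Of the 35, 7 were higher and 3 lower (28.6%), against 26.9% of all genes called (14% higher and 13% lower). The share of members was thus near that of all genes. It was below the share of genes averaging at least 7, 41.8%, and in that fit 9 members passed. The counts were 3 higher of 11 in transport and first steps (median 0.07), 2 higher and 2 lower of 10 later enzymes (median 0.09), 2 higher of 5 in pyruvate and lactate fate (median 0.08), and 1 lower of 9 in the HIF group (median 0.04). The median over all genes was -0.04. Groups did not overlap for 5 members, and for 11.3% of all genes. Both synthetic contrasts share the same 6 untreated arrays, so their values are side by side and no overlap is read from them.

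Hk2 spanned 9.54 to 9.96 in mCherry-Fc cells (median 9.75), against 8.46 to 9.54 in untreated synthetic cells (median 9.10), and rose by 0.69 log2 (SE 0.17, adjusted p = 0.00505). The values 0.50 within the low range and 0.88 within the high range both passed. Slc16a1 spanned 9.74 to 9.93, against 9.24 to 9.50 in untreated synthetic cells, and rose by 0.43 (adjusted p = 3.00e-06), with 0.49 and 0.37 within the low and high ranges. Both genes thus lay at or above the untreated arrays in every mCherry-Fc array, and the Slc16a1 groups did not overlap.

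Pgam1 spanned 12.08 to 12.33 in mCherry-Fc cells, against 11.31 to 12.05 in untreated synthetic cells, and rose by 0.46 (adjusted p = 0.00477). Pfkfb3 spanned 7.75 to 8.10, against 7.46 to 7.62 in untreated synthetic cells, and rose by 0.34 (adjusted p = 0.00537; 0.0669 with the replicate block). Pfkl, the liver-type phosphofructokinase, averaged 11.06 ± 0.08 in mCherry-Fc cells and 10.77 ± 0.20 in untreated synthetic cells (SD, n = 6 each) and rose by 0.29 (adjusted p = 0.00671). These 3 rises passed in both ranges, and after quantile normalization Pfkfb3 (0.23, adjusted p = 0.0625) and Pfkl (0.24, adjusted p = 0.0644) did not. Without untreated replicate 9, 6 of the 35 passed in place of 10.

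Tpi1, the triose phosphate isomerase gene, rose by 0.20 (adjusted p = 0.0361), with 0.12 within the low range (adjusted p = 0.139) and 0.28 within the high range. Pdk3 rose by 0.24 (adjusted p = 0.0249), with 0.30 within the low range and 0.18 within the high range (adjusted p = 0.0848). Tpi1 missed the threshold without any of untreated replicates 12, 13 and 14 or mCherry-Fc replicates 8, 9, 10 and 13 (0.16 to 0.20), and Pdk3 without untreated replicate 7 or 9 or mCherry-Fc replicate 13 or 14 (0.20 to 0.22). Among dim genes, Egln3, a HIF prolyl hydroxylase, fell by 0.26 (adjusted p = 0.0256), Ldhb, a lactate dehydrogenase subunit, by 0.22 (adjusted p = 0.0332) and Eno2, the neuronal enolase, by 0.19 (adjusted p = 0.0297). Their means were 4.52, 5.94 and 5.63 in mCherry-Fc cells, against 4.78, 6.16 and 5.83 in untreated synthetic cells. Within the low range the differences were -0.41, -0.31 and -0.30, all past the threshold, and within the high range -0.11, -0.12 and -0.09, with none past it.

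All 3 falls were lost when arrays were centred on their medians, at -0.16 (adjusted p = 0.142), -0.12 (adjusted p = 0.188) and -0.10 (adjusted p = 0.253). Egln3 and Ldhb were lost with the replicate block too, at -0.12 (adjusted p = 0.418) and -0.17 (adjusted p = 0.165). Each was also lost without at least 1 single array, untreated replicate 7 among them (Egln3 -0.22, Ldhb -0.20, Eno2 -0.17). With centring all 12 members past the threshold were higher, and the share of higher genes among all called moved from 51.9% to 85.5%. Vegfa, with 0.27 (adjusted p = 0.127), passed with the block (0.30, adjusted p = 0.0217), as did Pfkfb4, a relative of Pfkfb3 (0.06 with all arrays, 0.20 with the block, adjusted p = 0.0491).

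The direct comparison of both synthetic ligands left 1 gene. Slc2a6 was the member past the threshold, 1 of 35 (2.86%), against 1.09% of all genes (0.722% higher and 0.371% lower), and also the member whose groups did not overlap, against 2.96% of all genes. Among genes averaging at least 7 the share called was 3.17%. Slc2a6 spanned 8.22 to 8.61 in GFP-mCherry cells (median 8.35), against 6.94 to 7.12 in mCherry-Fc cells (median 7.00). The difference was 1.39 log2 (SE 0.07, 2.62-fold, adjusted p = 3.41e-14), and under the 26 alternatives it stayed between 1.31 and 1.42, past the threshold in each. The promoter printed above for Slc2a6 holds 4 GCGTG strings and no TTCNNNGAA. Neither trait is particular to it, as 18 of 36 members held GCGTG and 0 of 36 held TTCNNNGAA.

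The intervals of the other members bounded how far the 2 ligands could differ. For Hk2 the difference was 0.05 log2 with a 95% interval of -0.31 to 0.40, for Pgam1 0.02 (-0.22 to 0.26) and for Slc16a1 -0.02 (-0.13 to 0.09). A p above the threshold does not show that the proteins act alike on these genes. Within the low range 7 members passed, Slc2a6 higher and Slc2a1 (-0.66), Hk3 (-0.57), Pgk1 (-0.22), Pdk1 (-0.32), Egln1 (-0.45) and Bnip3 (-0.56) lower with GFP-mCherry. Within the high range Slc2a6 alone passed. Of all genes 2.53% were called within the low range and 1.57% within the high range.

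**Figure D3:**
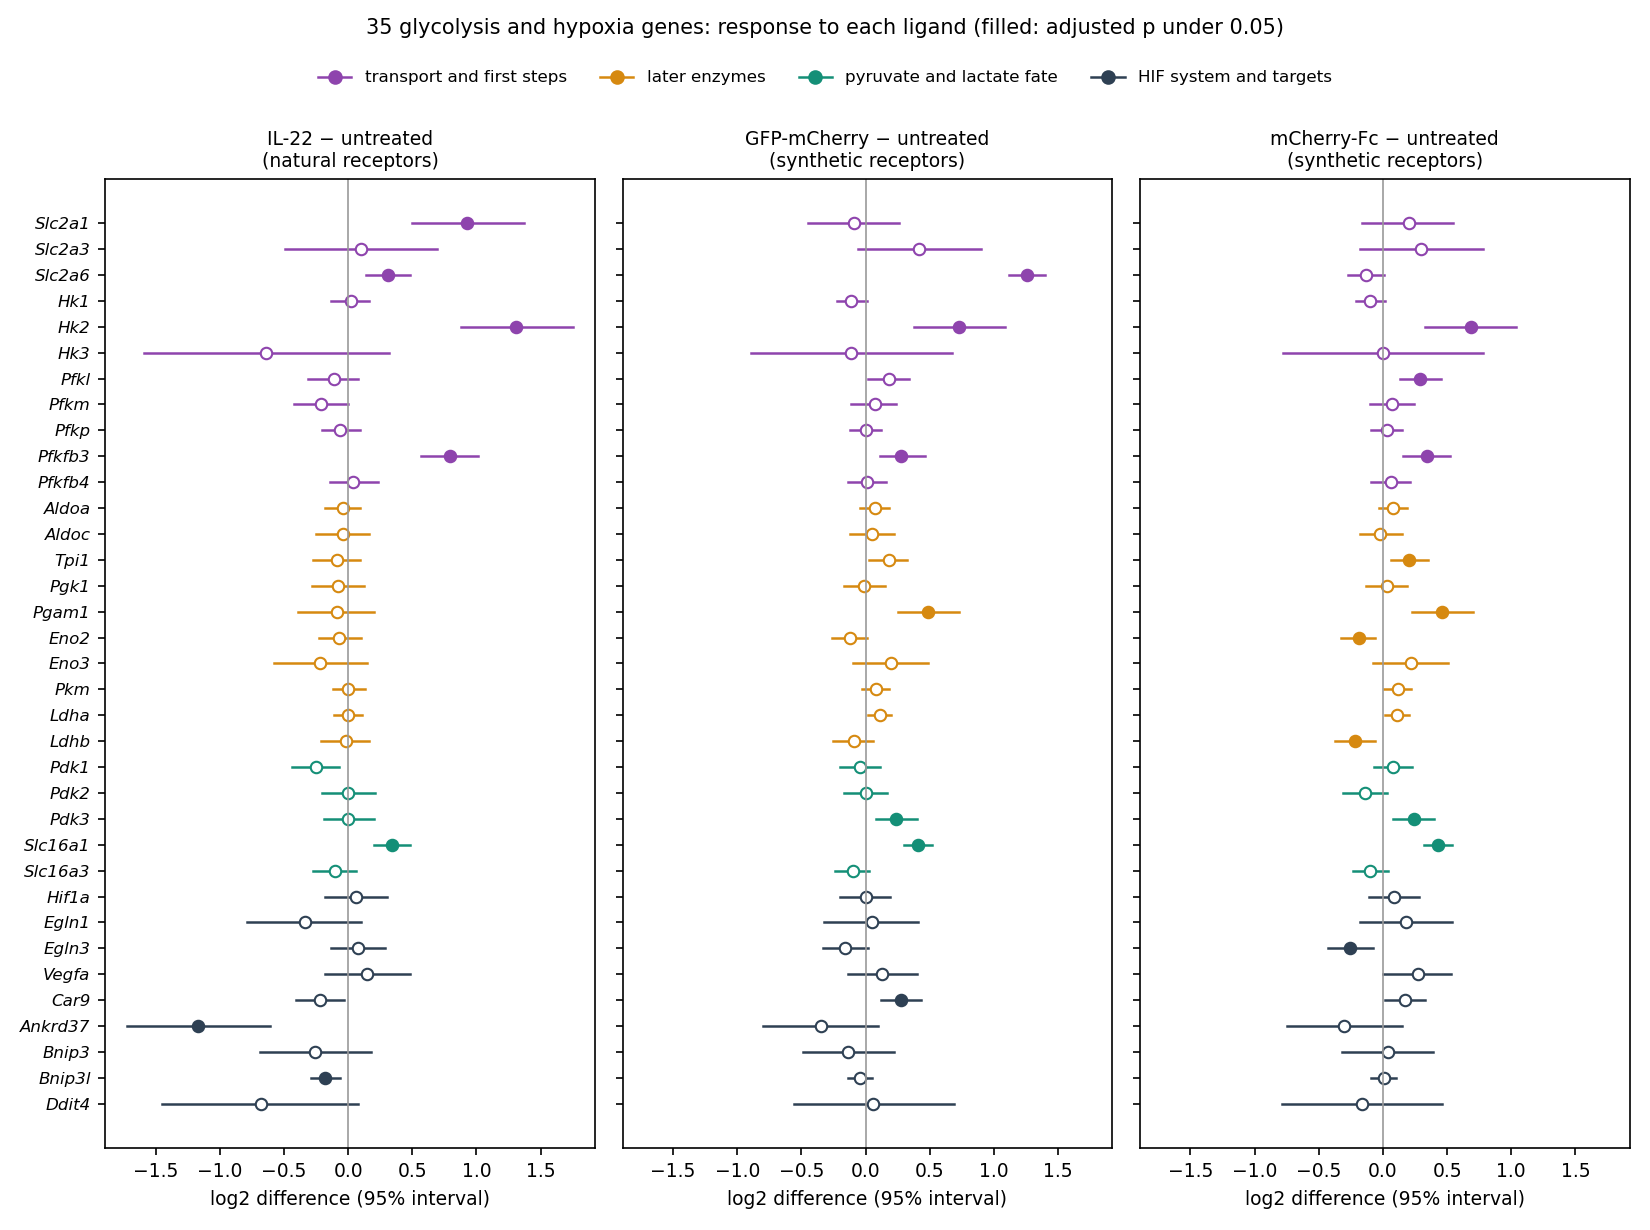
Log2 difference and 95% interval of each of the 35 genes for IL-22, GFP-mCherry and mCherry-Fc, each against its own untreated cells, ordered by role, with filled points for adjusted p under 0.05. Hk2, Pfkfb3 and Slc16a1 are above 0 with filled points in all 3 columns, and Slc2a1 is filled in the IL-22 column alone.

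Whether the receptor forms differed in response was tested as a difference of differences. When the IL-22 response was subtracted from that to GFP-mCherry, 5 of 35 passed (14.3%), against 13.6% of all genes (9.23% higher and 4.4% lower), a share near that of all genes. Among genes averaging at least 7 the share called was 33.5%, with 4 members passing in that fit. Slc2a1 responded less to GFP-mCherry than to IL-22, with a difference of -1.03 log2 (SE 0.27, adjusted p = 0.0104), and Pfkfb3 likewise, with -0.51 (adjusted p = 0.0117). Hk2 missed the threshold (-0.58, adjusted p = 0.172), although within the low range it was past it (-1.58, adjusted p = 1.07e-06). Slc2a6 responded more, by 0.94 (SE 0.11, adjusted p = 3.09e-07), as did Pgam1, by 0.58 (adjusted p = 0.0337), and Car9, by 0.49 (adjusted p = 0.00515).

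Only part of these held in every setting. Slc2a6 passed under all 34 alternatives (0.77 to 1.23). Slc2a1 was between -1.73 and -0.58 and missed the threshold in the high range alone, where it was -0.58 (adjusted p = 0.195). Car9 was 0.42 within the low range (adjusted p = 0.0248) and 0.45 within the high range, where it missed the threshold (adjusted p = 0.251). Pfkfb3 and Pgam1 missed it with the replicate block (-0.44, adjusted p = 0.0841, and 0.49, adjusted p = 0.0584), and Pfkfb3 was 0.00 within the high range. Pgam1 missed the threshold within both ranges (0.25 and 0.62) and on both of its other probe sets (0.48, adjusted p = 0.0688). It was also lost without IL-22 replicate 1, 2 or 3, untreated natural replicate 4 or 5, GFP-mCherry replicate 12 or untreated synthetic replicate 14 (0.50 to 0.55). Without IL-22 replicate 5, 13 members passed, and the share of all genes in that fit was not computed.

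When the IL-22 response was subtracted from the response to mCherry-Fc, 5 of 35 passed (14.3%), against 13.4% of all genes (8.76% higher and 4.6% lower). Among genes averaging at least 7 the share called was 32.4%, with 8 members passing in that fit. The 5 were Slc2a6 (-0.44, adjusted p = 0.00559), Pfkfb3 (-0.45, adjusted p = 0.0270), Pfkl (0.40, adjusted p = 0.0259), Pgam1 (0.56, adjusted p = 0.0436) and Car9 (0.39, adjusted p = 0.0285). With the replicate block none of these 5 passed (adjusted p 0.0737 to 0.194) and Slc2a1 did (-0.88, adjusted p = 0.0396), so the members called here depend on how the arrays are matched. Within the high range none of these 5 passed, and Pfkfb3 was 0.16 there. On both other probe sets Pgam1 was 0.46 (adjusted p = 0.0795). One member passed without IL-22 replicate 1, 2 or 3, and 13 without IL-22 replicate 5. The shares of all genes in these fits were not computed. Both differences use the same IL-22 and untreated arrays, and no overlap between them is read.

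The untreated lines already differed in this set. Untreated synthetic cells against untreated natural cells gave 2 higher and 6 lower of 35 (22.9%), against 15.2% of all genes (8.6% higher and 6.62% lower). Among genes averaging at least 7 the share called was 36%. In transport and first steps 3 of 11 were lower (median -0.14), of later enzymes 1 of 10 (median -0.09), of pyruvate and lactate fate 1 of 5 (median 0.08), and in the HIF group 2 were higher and 1 lower of 9 (median -0.03). The median over all genes was 0.01, and the groups did not overlap for 5 members and for 10.0% of all genes. The lines are different cell populations, so a receptor form and a line cannot be told apart.

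Hk3 spanned 6.93 to 7.68 in untreated synthetic cells (median 7.33), against 8.56, 8.60, 10.77 and 11.13 in untreated natural cells. All synthetic arrays were below all natural ones, and the natural arrays formed a low pair and a high pair by replicate number. The difference was -2.43 log2 (SE 0.43, adjusted p = 0.000153), with -0.97 within the low range and -3.89 within the high range, and the myeloid genes Itgam, Mpo, Lyz2 and Adgre1 were also higher on the high-range natural arrays, whereas Elane was not.

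Slc2a6 spanned 7.01 to 7.26 in untreated synthetic cells (median 7.12), against 8.06, 8.15, 8.24 and 8.28 in untreated natural cells. It was lower by the log2 difference of -1.04 (SE 0.08, adjusted p = 5.94e-11), and by -0.91 and -1.17 within the low and high ranges. GFP-mCherry cells, at 8.22 to 8.61, thus stood within or above the span of untreated natural cells for Slc2a6. Slc16a1 was lower by -0.43 (adjusted p = 1.04e-05) and Bnip3l higher by 0.34 (adjusted p = 2.23e-05), each with the same sign in both ranges.

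The other differences of the lines rested on 1 range. Hk2 was lower by -0.80 (adjusted p = 0.00446), with 0.04 within the low range and -1.65 within the high range. Eno3, the muscle enolase, spanned 8.02 to 8.52 in untreated synthetic cells (median 8.28), against 8.67, 8.61, 9.08 and 9.52 in untreated natural cells, with no overlap. It was lower by -0.69 (adjusted p = 0.00345), with -0.20 within the low range (adjusted p = 0.162) and -1.17 within the high range. Vegfa spanned 8.46 to 8.77 in untreated synthetic cells (median 8.59), against 8.70, 8.74, 9.36 and 9.59 in untreated natural cells, so the low natural pair overlapped the synthetic arrays. It was lower by -0.50 (adjusted p = 0.0187), with 0.02 within the low range and -1.01 within the high range, and was lost without untreated natural replicate 4 (-0.41) or 5 (-0.33). Ankrd37 spanned 9.27 to 9.68 in untreated synthetic cells (median 9.34), against 8.13, 7.84, 9.08 and 9.39 in untreated natural cells. It was higher by 0.82 (adjusted p = 0.0225), with 1.57 within the low range and 0.06 within the high range, and was lost without untreated natural replicate 2 (0.66) or 3 (0.56).

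**Figure D4:**
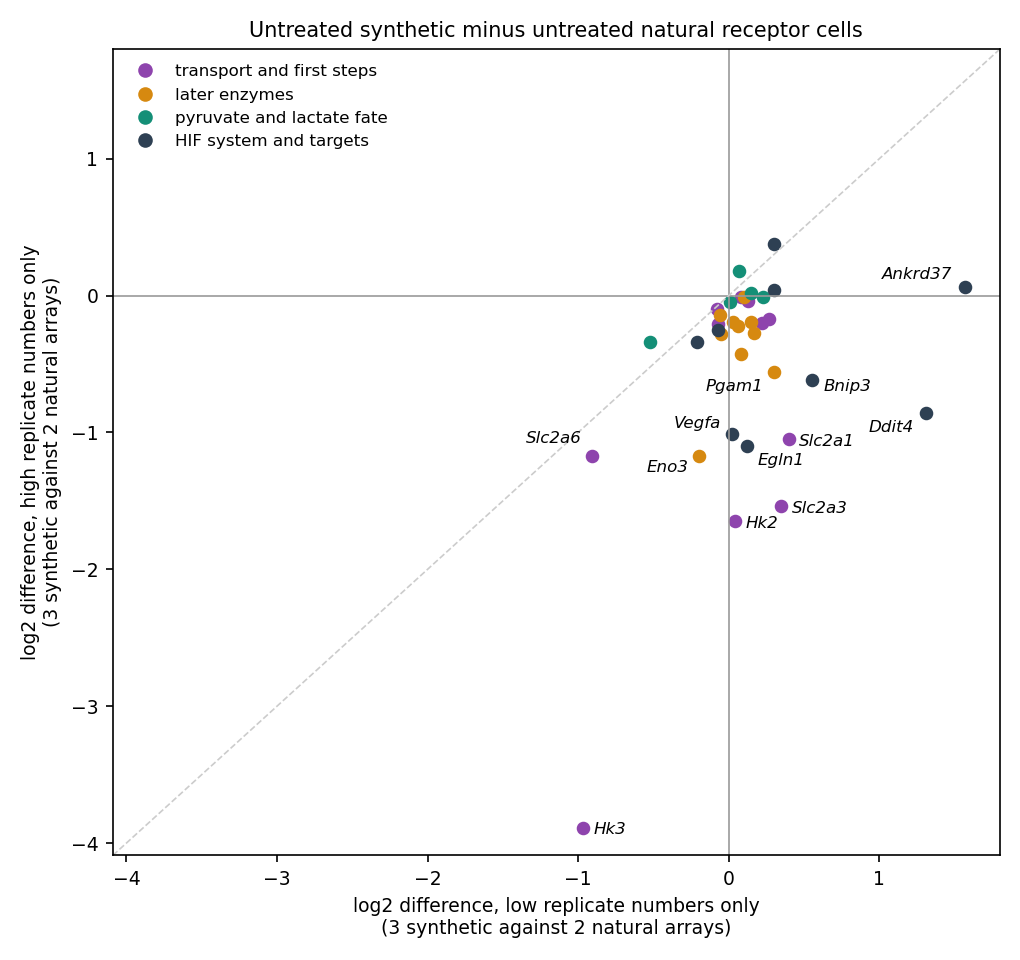
Log2 difference of untreated synthetic against untreated natural cells for each gene, within high replicate numbers (y axis) against within low replicate numbers (x axis), coloured by role. Slc2a6 and Hk3 lie at or below -0.91 in both ranges, while Hk2, Vegfa and Ddit4 have opposite signs or lie near 0 in the low range.

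Within the low range 8 members were higher and 3 lower in untreated synthetic cells, and within the high range 1 was higher and 18 lower. Of all genes 11.8% were called within the low range and 28.8% within the high range, with 37.2% and 63.3% of those higher. Ddit4 was 1.31 within the low range and -0.86 within the high range, and Slc2a1 0.40 and -1.05. The counts by direction thus differed between the ranges.

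Probe set choice mattered for a few members. Of the 35, 7 had several probe sets, and in all 7 the brightest set had neighbours, in probe set number order, from another chromosome than the gene, while all 28 single-set members lay among neighbours of their own chromosome. Signal from near-identical copies could enter such a set, and the probes cannot be checked here. Bnip3l fell with IL-22 on its other set too (-0.21, adjusted p = 0.00960). Pkm, the pyruvate kinase gene, did not pass on the set used (0.08 with GFP-mCherry and 0.12 with mCherry-Fc) but did on its other set (0.13, adjusted p = 0.0404, and 0.14, adjusted p = 0.0287). The fall of Ldhb with mCherry-Fc did not pass on its other set (-0.16, adjusted p = 0.355). Hk1 had sets of opposite sign with GFP-mCherry (-0.11 and 0.14).

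The members also differed in where they stood on the arrays. Ldha (13.15 log2 on average) and Aldoa (13.09) were at the 99.9 percentile of the genes measured, and neither passed in the 7 comparisons. Egln3 (4.65, 16.9 percentile), Eno2 (5.77, 36.7) and Car9 (6.20, 45.2) were dim. Levels of different probe sets are on no common scale, so these percentiles only place each gene among the array's signals.

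Neighbouring pathways gave context. Of 6 pentose phosphate genes 0 passed limma's test with IL-22 (1 at an unadjusted p under 0.05), 4 were higher with GFP-mCherry and 2 with mCherry-Fc, each with 0 lower. The shares were 66.7% with GFP-mCherry and 33.3% with mCherry-Fc, against 26% and 26.9% of all genes called. Pgd, the phosphogluconate dehydrogenase gene of the oxidative branch, was higher by 0.60 with GFP-mCherry (adjusted p = 3.73e-08) and by 0.55 with mCherry-Fc. Of 10 genes that admit pyruvate to mitochondria, 2 were lower with IL-22, 4 higher with GFP-mCherry and 7 higher with mCherry-Fc. Of all genes 6.03% were lower with IL-22, 14.2% higher with GFP-mCherry and 14% higher with mCherry-Fc. The genes of both lists average at least 7, and of all such genes 27.5% were called with IL-22 (43.1% of them higher). The share was 45.4% with GFP-mCherry (74% of them higher) and 41.8% with mCherry-Fc (79.7% of them higher). The shares over all genes are thus a low background for these 2 lists. Pdp1, a phosphatase that activates pyruvate dehydrogenase, was lower by -0.44 with IL-22 (adjusted p = 0.00507), with -0.54 and -0.53 within the low and high ranges, and higher by 0.48 with GFP-mCherry and by 0.67 with mCherry-Fc. Tested directly, the response of Pdp1 to GFP-mCherry exceeded that to IL-22 by 0.92 (adjusted p = 2.49e-05), and the response to mCherry-Fc did so by 1.11 (adjusted p = 1.65e-06).

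Of 12 regulators of HIF, 2 were higher and 1 lower with IL-22, 4 higher and 3 lower with GFP-mCherry, and 4 higher and 1 lower with mCherry-Fc. These were 25% with IL-22, 58.3% with GFP-mCherry and 41.7% with mCherry-Fc, against 11.4%, 26% and 26.9% of all genes. Among genes averaging at least 7, as most of these regulators do, the shares called were 27.5%, 45.4% and 41.8%. Nfe2l2, a factor of the oxidative stress response, was higher with IL-22 (0.45), GFP-mCherry (0.34) and mCherry-Fc (0.29). Vhl, which marks HIF-1α for destruction, was -0.29 with IL-22 and 0.25 with GFP-mCherry. Cited2, an inhibitor of HIF-1α, averaged 11.64 in GFP-mCherry cells and 12.06 in mCherry-Fc cells, and was lower by -0.42 (adjusted p = 0.000184).

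Of 37 other known HIF targets, 3 were higher and 5 lower with IL-22, 2 higher and 4 lower with GFP-mCherry, 3 higher and 1 lower with mCherry-Fc, and 0 passed limma's test between the synthetic ligands (2 at an unadjusted p under 0.05). Bhlhe40, a transcription repressor, was higher by 1.21 with IL-22 (adjusted p = 0.00032), with 1.81 and 0.84 within the low and high ranges. Car12, a carbonic anhydrase, was higher by 0.80 with IL-22, 0.50 with GFP-mCherry and 0.46 with mCherry-Fc. Kdm3a, a histone demethylase, was lower by -0.51 with IL-22 and by -0.43 with GFP-mCherry. The shares called were 21.6% with IL-22, 16.2% with GFP-mCherry and 10.8% with mCherry-Fc, against 11.4%, 26% and 26.9% of all genes, so with both synthetic ligands these targets passed at a share below that of all genes.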

How the data were processed

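RNA of 26 samples in 5 groups was hybridised to Affymetrix Mouse Gene arrays (150 ng of RNA with an integrity number above 8, per the labels). The values as deposited are log2 signals of each probe set, made by the authors with Affymetrix Expression Console 4.0, per the submitters' processing notes and the labels. The algorithm, filters and genome build are not given in the sources used here. Values spanned 1.79 to 14.31, with array medians of 6.06 to 6.28, and the number of arrays limits the precision. No pair of arrays held identical values (0 pairs).

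Of 35556 probe sets, 21789 name 1 gene symbol in the supplied annotation, 1621 several and 12146 none. Symbols were updated through Entrez identifiers for 21698. For 999 genes with several sets the highest mean was kept, leaving 19938 genes, with no filter on dim ones.

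One limma model over all 5 groups was fitted (R 4.3.3, limma 3.58.1, lmFit and eBayes, two-sided), with Benjamini-Hochberg adjustment over the 19938 genes and a threshold of 0.05. In the text rose and fell, higher and lower as verdicts, and passed refer to that threshold, and intervals are 95% intervals of the model. The fit was tested on simulated data with independent noise on each array, which leaves out the correlation of same-numbered samples given below. The members, the role and pathway lists and the split by replicate number range were chosen with earlier results of these data known. Every measured member enters the role counts. Any member may be named, and values per array are given for members past the threshold in at least 1 of the 7 comparisons with an absolute log2 difference of at least 0.5 there. From each other list at most 2 rises and 2 falls are named per comparison.

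Same-numbered samples share a number in the labels. Their deviations from group means correlated at 0.38, 0.31 and 0.62 between the natural groups, 0.26, 0.47 and 0.33 between mCherry-Fc and untreated, and 0.22, 0.27 and 0.11 between the 2 ligands. Between GFP-mCherry and untreated cells 2 of 6 pairs were negative (-0.15 and -0.06). Same-numbered samples also share a number range, and samples of different number were not compared. Pairing by number and the range split were therefore not told apart here. The main fit has no block, and replicate blocks were fitted as alternatives. Alternatives were quantile normalization, median centring, other probe set rules, filters at a mean of 5 or 7, a trended robust prior, array weights, fits of the compared groups alone, replicate blocks, the number ranges, and leaving out each array. Promoter letters came from RefSeq tables (GRCm38.p6), in which Slc2a3 and Bnip3l were not matched.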

Additional observations from a re-analysis of the deposited data

Results flagged for a closer look

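An array far from the others of its group was found in 19 of 175 checks of a gene in a group, where chance gives about 1 in 20. IL-22 replicate 5 held 15 of the 19. It was the highest IL-22 array for Slc2a1 (12.81 log2), Hk3 (10.90), Pfkl (10.84), Pfkp (12.10), Aldoa (13.21), Tpi1 (12.48), Pgk1 (12.66), Eno2 (5.97), Eno3 (9.37), Pdk1 (9.46), Egln1 (10.59), Vegfa (9.85), Ankrd37 (8.50) and Bnip3 (12.37). It was the lowest for Pfkfb3 (7.91). GFP-mCherry replicate 12 stood apart in Pfkm (9.18) and Vegfa (8.92), mCherry-Fc replicate 10 in Slc2a6 (7.12), and untreated natural replicate 5 in Pfkfb3 (7.80).

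The response differed between the receptor forms, by a test of the difference itself, in 10 cases. For GFP-mCherry minus IL-22 these were Slc2a1 (-1.03 log2), Slc2a6 (0.94), Pfkfb3 (-0.51), Pgam1 (0.58) and Car9 (0.49). For mCherry-Fc minus IL-22 they were Slc2a6 (-0.44), Pfkl (0.40), Pfkfb3 (-0.45), Pgam1 (0.56) and Car9 (0.39).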

How the results depend on the processing

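Counts of members past the threshold within 1.5 times of the reported one are left out. For counts without single arrays the share over all genes was not computed. For IL-22 (7 reported) the count was 4 in a fit of its own groups, 2 with high numbers only and 5 to 12 without single arrays. For GFP-mCherry (7) it was 12 with centring, with a term for the number range, with low numbers only and with high numbers only, and 6 to 9 without single arrays. For mCherry-Fc (10) it was 4 after quantile normalization and 6 to 11 without single arrays, the lowest without untreated replicate 9. For GFP-mCherry against mCherry-Fc (1) it was 7 with low numbers only, and 1 without each single array. For the response to GFP-mCherry minus that to IL-22 (5) it was 9 with array weights, 1 with high numbers only and 4 to 13 without single arrays. For the response to mCherry-Fc minus that to IL-22 (5) it was 3 after quantile normalization, 8 with a mean of at least 7, 10 with array weights, 3 in a fit of its own groups, 1 with a fixed and 8 with a random replicate block, 9 with the range term, 10 with low and 0 with high numbers only, and 1 to 13 without single arrays. For the untreated lines (8) it was 19 with high numbers only and 7 to 10 without single arrays.

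Among values past the threshold with all arrays or in the alternative, the sign reversed in 10 cases. With high numbers only these were Bnip3l with IL-22 (0.02), Pfkfb3 in mCherry-Fc minus IL-22 (0.16), and between the lines Pfkm (-0.20) and Ddit4 (-0.86). With low numbers only they were Egln1 with GFP-mCherry (-0.26), and between the lines Slc2a1 (0.40), Hk2 (0.04), Pgam1 (0.30), Vegfa (0.02) and Bnip3 (0.55). The cause was not tested. With the same sign, 151 values lost and 190 gained a call. The other 6243 stayed on their side of the threshold, and the signs of those never past it were not compared.

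With a fixed replicate block the counts were 6, 10, 9 and 1 for IL-22, GFP-mCherry, mCherry-Fc and the 2 ligands, 4 and 1 for the differences of response. For GFP-mCherry against untreated, where some same-numbered deviations correlated negatively, the block gained Slc2a3, Tpi1 and Ankrd37. Between the lines the numbers of the 2 ranges are not shared and no fixed block could be fitted. Centring moved the share of higher genes among all called with IL-22 from 47.2% to 58.9%. Dim genes such as Egln3 are limited by signal over background, which the files do not give.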

Other observations

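Other lists gave a few values outside the comparisons above. Of 13 isozymes of other tissues, 0 passed limma's test with IL-22 (1 at an unadjusted p under 0.05), 1 was higher (Ldhc, 0.25) and 2 lower (Slc16a8, -0.28, and Pklr, -0.23) with GFP-mCherry, and 5 were lower with mCherry-Fc. The shares were 23.1% with GFP-mCherry and 38.5% with mCherry-Fc, against 26% and 26.9% of all genes called, 13% of all genes being lower with mCherry-Fc. Of 16 genes of glycogen and other hexoses, Slc2a8, a glucose transporter inside the cell, was -0.28 with IL-22, 0.33 with GFP-mCherry and 0.32 with mCherry-Fc. Between the untreated lines Txnip, an inhibitor of glucose uptake, was lower by -0.70 in synthetic cells, and among the other HIF targets Ero1a was lower by -1.12 and Hmox1 by -1.11, with -0.28 within the low range and -1.95 and -1.94 within the high range.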
